A study of Mus musculus with 6 samples.

Results

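Lysosomal proteases were followed in inguinal white adipose tissue, the subcutaneous fat pad of the groin, in a series whose title links social isolation to blood glucose and sympathetic activation of this depot. The group holds 10 genes, picked by symbol from the 56691 genes of the deposited table: Ctsa, Ctsb, Ctsc, Ctsd, Ctsh, Ctsk, Ctsl, Ctss and Ctsz, which encode cathepsins, and Lgmn, which encodes legumain. Bulk RNA-seq gave 1 library from each of 6 male C57BL/6J mice, an inbred strain with no transgene or deletion named in the labels. They entered the experiment aged 8 weeks and spent a further 8 weeks either in group housing, with 4 to 6 mice per cage (3 mice), or in single housing, with 1 mouse per cage (3 mice). The labels do not say whether group-housed mice shared a cage or litter, so the spread between libraries may not be that of independent animals. All 10 genes passed the filter on low counts and were among the 18085 genes tested, and the smallest count of any of them was 460.

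Cathepsins and legumain break down proteins in the acid interior of lysosomes, the vesicles that digest material taken up by a cell or set aside by autophagy. They are made as inactive precursors, carry a mannose 6-phosphate tag that directs many of them to the lysosome, and are activated there by cutting. Most cathepsins use a catalytic cysteine, cathepsin D uses an aspartate pair and cathepsin A a serine, while legumain is a cysteine protease of another family that cuts after asparagine and helps to process other cathepsins. Macrophages, which clear dead adipocytes in fat, are rich in these enzymes, and antigen-presenting cells use cathepsin S to cut the invariant chain off class II molecules.

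Library totals ran from 21410779 to 35318376 counts. Adipoq, the adipocyte hormone adiponectin, stood at 697 to 1293 FPKM over the 6 libraries (counts per kilobase of exon, scaled to library total), and no marker of the adipocyte list was at 0. Libraries stood apart in tissue content before any comparison of housing. The 21 tested genes of the skeletal muscle list averaged 7.87 log2 CPM (library-scaled counts, with TMM factors) in the third single-housed mouse (library 3) and 5.77 in the second group-housed mouse, with 0.97 to 4.14 elsewhere. Those same 2 libraries had the lowest T and NK cell marker levels, 4.11 and 4.70 log2 CPM against 5.51 to 5.62. The share of counts from mitochondrial genes separated the housing groups, at 6.02% to 7.53% under group and 9.19% to 12.1% under single housing, and its part in the differences below was not tested. Results are also given without both muscle-rich libraries where a count moved by more than 1.5 times.

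Promoter windows of Ctsd, Ctsa, Lgmn, Ctss and Ctsc are shown, Lgmn being the protease with the largest difference below. Those of the other 4 hold motifs searched, and the Lgmn window shown holds none. At its other start, not shown, Lgmn has 1 CACGTG, and the Ctsa start not shown has no motif. All windows come from RefSeq (build GRCm38.p6). They span 250 bases before to 50 bases after a transcript start, written 5′ to 3′. Capitals mark CACGTG, the core of the site bound by the TFEB and TFE3 factors of lysosomal genes, and GAGGAA or its reverse complement TTCCTC, the core of the site of PU.1, a factor of myeloid and B cells.
Ctsd (chr7:142387778-142388077, minus strand): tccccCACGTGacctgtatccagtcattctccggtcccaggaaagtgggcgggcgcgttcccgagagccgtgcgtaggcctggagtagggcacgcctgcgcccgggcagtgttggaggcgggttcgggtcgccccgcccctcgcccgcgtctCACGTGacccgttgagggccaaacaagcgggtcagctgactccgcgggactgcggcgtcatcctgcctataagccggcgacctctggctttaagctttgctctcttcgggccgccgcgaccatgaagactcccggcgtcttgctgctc
Ctsa (chr2:164833523-164833822, plus strand): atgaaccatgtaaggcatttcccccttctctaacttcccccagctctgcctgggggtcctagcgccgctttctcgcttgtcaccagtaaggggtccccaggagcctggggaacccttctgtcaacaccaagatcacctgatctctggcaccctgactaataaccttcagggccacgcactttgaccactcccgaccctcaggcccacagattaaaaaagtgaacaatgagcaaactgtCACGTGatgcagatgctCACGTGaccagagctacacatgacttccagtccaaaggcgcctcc
Lgmn (chr12:102439679-102439978, minus strand): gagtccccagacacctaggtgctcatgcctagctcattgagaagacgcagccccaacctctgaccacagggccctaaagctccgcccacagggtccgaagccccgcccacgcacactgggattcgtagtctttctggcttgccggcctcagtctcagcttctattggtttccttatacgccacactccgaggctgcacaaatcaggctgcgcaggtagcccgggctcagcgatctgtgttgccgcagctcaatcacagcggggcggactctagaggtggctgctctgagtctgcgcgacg
Ctss (chr3:95526536-95526835, plus strand): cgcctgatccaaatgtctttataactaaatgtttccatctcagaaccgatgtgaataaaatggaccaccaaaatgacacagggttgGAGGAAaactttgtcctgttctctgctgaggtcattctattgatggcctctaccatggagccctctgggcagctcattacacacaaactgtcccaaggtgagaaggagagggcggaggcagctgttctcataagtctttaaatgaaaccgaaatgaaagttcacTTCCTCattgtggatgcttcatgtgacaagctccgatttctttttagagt
Ctsc (chr7:88277835-88278134, plus strand): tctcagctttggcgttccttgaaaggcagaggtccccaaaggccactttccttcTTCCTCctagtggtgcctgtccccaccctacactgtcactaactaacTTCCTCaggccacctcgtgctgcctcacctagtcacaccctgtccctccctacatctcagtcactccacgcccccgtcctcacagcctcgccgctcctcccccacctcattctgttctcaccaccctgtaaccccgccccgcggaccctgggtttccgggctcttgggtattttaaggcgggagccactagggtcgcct

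The RefSeq table held 10 windows for 8 of the 10 genes, with 2 starts each for Ctsa and Lgmn. CACGTG, searched on both strands, was in 4 of the 10 windows, those of Ctsd, Ctsl, 1 start of Ctsa and 1 start of Lgmn, and in 7.15% of the 32851 windows of the table. The longer TCACGTGA, which contains it, was in 2 windows (Ctsa and Ctsd) and in 0.974% of all. GAGGAA was in 3 windows, those of Ctsc, Ctsk and Ctss, and in 28.3% of all. These matches describe letters in the windows shown and no binding was measured.

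The comparison of single with group housing asks whether isolation moved these transcripts in the fat pad. No protease passed the test, edgeR's quasi-likelihood test with Benjamini-Hochberg adjustment over 18085 genes at an adjusted p below 0.05, and neither did any other gene (0%). At an unadjusted p below 0.05 edgeR had 628 genes lower and 631 higher, and DESeq2 called 207 at its adjusted threshold. Lgmn came nearest, with a level 2.15-fold lower in single housing, and Ctsc, Ctss, Ctsk and Ctsh were each estimated at 68.0% to 74.0% of their group-housed level. Ctsb, Ctsd and Ctsl, by contrast, differed by less than their standard errors. Of the 10 estimates 8 were below 0 and their median was -0.34, where 51.9% of all tested genes were below 0 and the median was -0.01. At an unadjusted p below 0.05, 3 were lower (Lgmn, Ctsc and Ctsh) and 0 higher, against 3.47% and 3.49% of all genes. For 4 of the 10 (Lgmn, Ctsc, Ctsh and Ctsz) all 3 single-housed libraries lay below all 3 group-housed ones in log2 CPM, and for 0 the reverse held, against 6.78% and 6.61% of all genes. In bulk tissue, fewer cells of a type and less RNA per cell cannot be told apart.

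**Figure D1:**
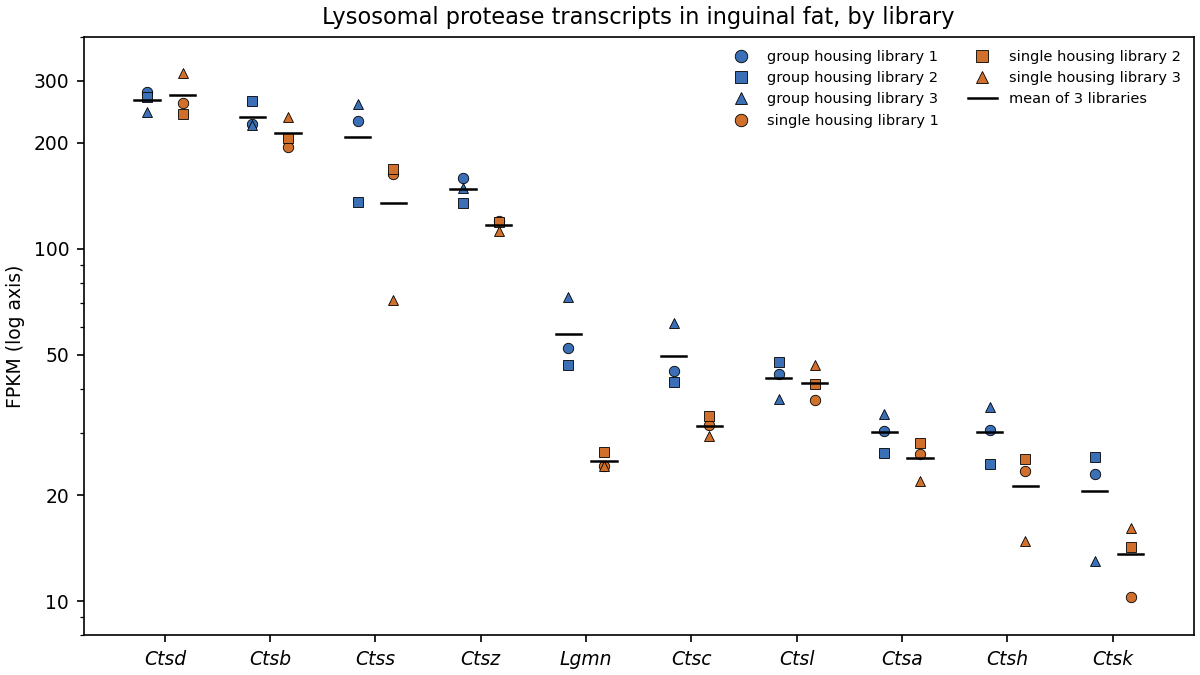
FPKM (log axis) of each protease in the 3 group-housed (blue) and 3 single-housed (orange) libraries, ordered by group-housed mean, with symbols for library number and black bars for means. Lgmn, Ctsc and Ctsz show no overlap between groups, with Lgmn at 46.9 to 72.8 against 24.1 to 26.5 FPKM.

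Legumain (Lgmn; ENSMUSG00000021190, mm39 chromosome 12, 102360343 to 102406072, minus strand) measured 52.3, 46.9 and 72.8 FPKM under group housing (libraries 1, 2 and 3, the order used throughout) and 24.1, 26.5 and 24.2 FPKM under single housing. The groups were far apart and the single-housed libraries lay close together, with means of 57.3 ± 13.7 and 24.9 ± 1.34 FPKM (SD, n = 3 each). Its log2 fold change was -1.10 ± 0.15 (SE), with a 95% interval of -1.46 to -0.75 and an edgeR adjusted p = 0.123. It ranked 22nd by p among the 18085 genes.

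The call for Lgmn turned on the method. DESeq2 gave an adjusted p = 9.03e-07 and called it as 1 of 10 proteases, where 0.714% of genes were called lower in single housing. limma voom with library weights gave 0.0129 (0.227% of genes lower), edgeR without the filter on low counts 0.0181 (0.114%), and edgeR with the muscle marker level as a covariate 0.0043 (3.02%). Leaving out the 2 muscle-rich libraries gave an adjusted p = 0.054 for Lgmn in edgeR, and 5 of the 10 proteases were then lower at an unadjusted p below 0.05, against 5.96% of genes. The estimate itself stayed between -1.23 and -0.94 over the 16 alternatives run, and its adjusted p ranged from 9.03e-07 to 0.779.

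Among the exopeptidases, which trim residues from protein ends, cathepsin C differed most. Cathepsin C (Ctsc; ENSMUSG00000030560, chromosome 7, 87927293 to 87960096, plus strand) removes dipeptides and activates the serine proteases of immune cell granules. Its levels were 45.0, 42.0 and 61.7 FPKM under group housing and 31.6, 33.6 and 29.4 FPKM under single housing. All single-housed values lay below all group-housed ones, and group-housed library 3 was again the highest. The log2 fold change was -0.56 ± 0.15 (edgeR adjusted p = 0.484, DESeq2 adjusted p = 0.0521).

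Cathepsin Z (Ctsz; ENSMUSG00000016256, chromosome 2, 174269286 to 174280832, minus strand), a carboxypeptidase, showed the same order at a smaller size. It stood at 159, 135 and 149 FPKM under group housing and at 120, 119 and 112 FPKM under single housing, with no overlap. The estimate was -0.25 ± 0.11, with a 95% interval of -0.51 to 0.02 and an edgeR adjusted p = 0.747.

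Cathepsin H (Ctsh; ENSMUSG00000032359, chromosome 9, 89936205 to 89958142, plus strand), an aminopeptidase, stood at 30.6, 24.5 and 35.6 FPKM in the group-housed libraries and 23.4, 25.3 and 14.8 FPKM in the single-housed ones. Single-housed library 3 was the lowest by far. On the FPKM scale single-housed library 2 lay above group-housed library 2, while in TMM-scaled log2 CPM the 2 groups were apart (6.83 to 7.20 against 6.22 to 6.81). Its log2 fold change was -0.43 ± 0.18 (edgeR adjusted p = 0.718).

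Cathepsin A (Ctsa; ENSMUSG00000017760, chromosome 2, 164674793 to 164682952, plus strand), a serine carboxypeptidase that also protects the lysosomal enzymes neuraminidase 1 and beta-galactosidase, stood at 30.3, 26.4 and 33.9 against 26.2, 28.1 and 21.9 FPKM. The groups overlapped, and the log2 fold change was -0.16 ± 0.11 (95% interval -0.42 to 0.10; edgeR adjusted p = 0.839). Its partners did not pass either: Neu1 averaged 10.4 ± 0.77 FPKM under group and 8.74 ± 1.35 under single housing, and Glb1 7.87 ± 0.56 and 7.28 ± 0.10 (SD, n = 3 each). Ctsa shares 1515 bases with Pltp on the opposite strand, whose summed count was 48.4% of its own. That count covers all of Pltp and not the shared bases alone. No source used here says if reads were assigned by strand, so the Ctsa level is uncertain by an unknown amount. The same holds for Ctsb, which shares 774 bases with Fdft1, while Ctsz meets Nelfcd over only 10 bases.

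The endopeptidases Ctss and Ctsk lie close together on chromosome 3, in the same direction and 17423 bases apart with 1 other annotated gene between them, and their levels followed different libraries. Cathepsin S (Ctss; ENSMUSG00000038642, 95434097 to 95463714) stood at 231, 136 and 257 FPKM under group housing and at 163, 169 and 71.7 FPKM under single housing. Its lowest values were in single-housed library 3 and group-housed library 2, so the groups overlapped. The log2 fold change was -0.55 ± 0.32, with a 95% interval of -1.30 to 0.21 (edgeR adjusted p = 0.810).

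Cathepsin K (Ctsk; ENSMUSG00000028111, 95406567 to 95416673), the collagen-cutting protease of osteoclasts that fibroblasts also make, had the lowest level of the 10. It stood at 22.9, 25.6 and 13.0 FPKM under group housing and at 10.3, 14.2 and 16.1 FPKM under single housing. Here group-housed library 2 was the highest and group-housed library 3 fell among the single-housed values. The log2 fold change was -0.51 ± 0.32 (95% interval -1.27 to 0.25; edgeR adjusted p = 0.823). Of 7 osteoclast markers, 3 (Dcstamp, Calcr and Oscar) were too low to be tested, while Acp5, which macrophages also express, stood at 142 ± 27.0 and 130 ± 6.99 FPKM.

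**Figure D2:**
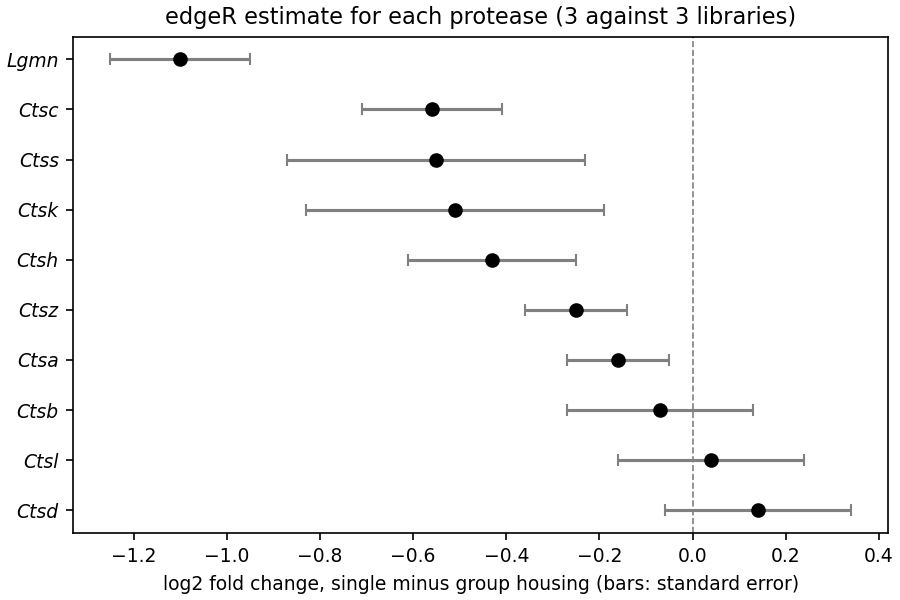
edgeR log2 fold change of each protease, single minus group housing, with bars of 1 standard error from 3 against 3 libraries. The estimates run from -1.10 for Lgmn to 0.14 for Ctsd, and 0 of them passed an adjusted p below 0.05.

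Ctsd and Ctsb, the 2 most abundant proteases, and Ctsl had the estimates nearest to 0. Cathepsin D (Ctsd; ENSMUSG00000007891, chromosome 7, 141929648 to 141941775, minus strand), the aspartic endopeptidase, stood at 278, 270 and 245 FPKM under group housing and 260, 242 and 316 FPKM under single housing, with its highest value in single-housed library 3. The log2 fold change was 0.14 ± 0.20, with a 95% interval of -0.32 to 0.60 (edgeR adjusted p = 0.903). Cathepsin B (Ctsb; ENSMUSG00000021939, chromosome 14, 63359911 to 63383372, plus strand), a cysteine protease with both endopeptidase and carboxypeptidase activity, stood at 226, 262 and 224 against 195, 207 and 237 FPKM. Its log2 fold change was -0.07 ± 0.20 (95% interval -0.53 to 0.40; edgeR adjusted p = 0.950). Cathepsin L (Ctsl; ENSMUSG00000021477, chromosome 13, 64507151 to 64518704, minus strand), an endopeptidase of broad range, stood at 44.1, 47.8 and 37.5 against 37.1, 41.4 and 46.7 FPKM. Its log2 fold change was 0.04 ± 0.20 (95% interval -0.42 to 0.50; edgeR adjusted p = 0.970). For all 3, 1 of the 2 muscle-rich libraries (single-housed 3 or group-housed 2) had the highest value, and the sign of each estimate changed in at least 2 alternatives.

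Per length of exon, the order of the group-housed means was Ctsd, Ctsb, Ctss, Ctsz, Lgmn, Ctsc, Ctsl, then Ctsh and Ctsa at the same level, and Ctsk. Between neighbours in that order, the 3 libraries were apart only between Ctsz and Lgmn (at least 135 against at most 72.8 FPKM) and between Ctsl and Ctsa (37.5 against 33.9 FPKM). Under single housing Lgmn took 8th place instead of 5th. Summed over the 10 genes, the level was 1118, 1016 and 1130 FPKM in the group-housed libraries and 891, 906 and 889 FPKM in the single-housed ones, with no overlap. Lgmn made up 5.24% ± 1.04 of that sum under group housing and 2.78% ± 0.12 under single housing, and Ctsd 24.4% ± 2.49 and 30.5% ± 4.54 (SD, n = 3 each). The share of Ctsd was higher in all 3 single-housed libraries, while its own FPKM overlapped between the groups. Divided by the TMM factors, the sums averaged 1054 ± 26.6 and 925 ± 61.4 FPKM.

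The proteases differed in which libraries were high and which were low. In log2 CPM relative to the mean of the 6 libraries, Lgmn was above 0 in all 3 group-housed libraries (0.37 to 0.83) and below 0 in all 3 single-housed ones (-0.64 to -0.47). Ctss ranged from -0.98 in single-housed library 3 to 0.56 in group-housed library 3. Ctsk ran from -0.65 in single-housed library 1 to 0.70 in group-housed library 2. Ctsz and Ctsa varied least, over 0.39 and 0.33 on the log2 scale.

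**Figure D3:**
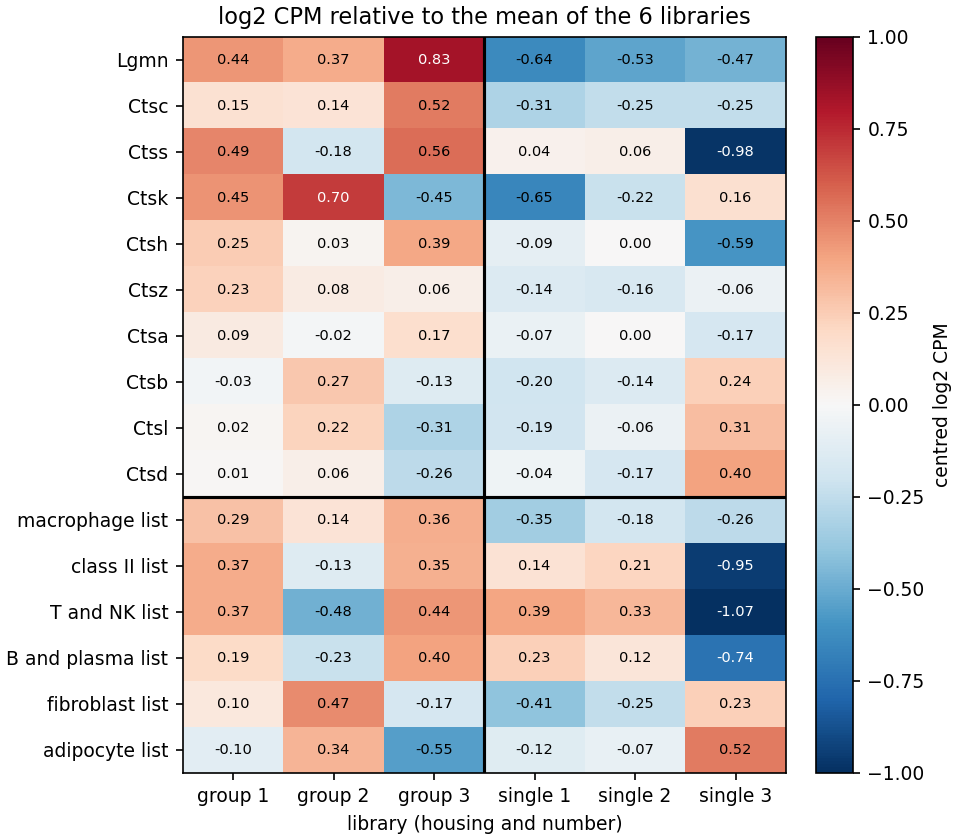
Log2 CPM of each protease (upper block) and mean log2 CPM of 6 marker lists (lower block), each relative to its mean over the 6 libraries, with colour and printed number for the same value. Lgmn is positive in all 3 group-housed and negative in all 3 single-housed libraries, and Ctss is lowest in single-housed library 3 (-0.98), where the T and NK, B and plasma, and class II lists are also lowest. The colour scale ends at 1 and -1.

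Markers of macrophages and monocytes also stood lower in single housing in most cases, in mean log2 CPM without overlap (5.46 to 5.68 against 4.97 to 5.14). Of 24 such genes 21 had a log2 fold change below 0, with a median of -0.51, against 51.9% of all genes below 0. At an unadjusted p below 0.05, 12 were lower, against 3.47% of all genes. DESeq2 called 5 of the 24 lower at its adjusted threshold, against 0.714% of all genes. The summed level of the 24 ran from 1148 to 1765 FPKM under group and from 799 to 1183 FPKM under single housing. No marker was at 0 in any library. Itgam, the integrin CD11b, stood at 6.08, 6.21 and 8.29 against 3.18, 3.27 and 3.04 FPKM, and Lgals3, galectin-3, at 42.1 ± 9.03 against 17.4 ± 1.02 FPKM. The Fc receptor gene Fcgr1 averaged 6.24 ± 1.69 FPKM under group and 1.62 ± 0.34 under single housing, and Cd68, a lysosomal membrane protein of macrophages, at 34.4 ± 7.94 and 22.3 ± 4.09 FPKM. Adgre1, the macrophage marker F4/80, stood at 8.90 ± 0.46 and 6.11 ± 1.54 FPKM. By contrast Csf1r, the receptor that macrophages need to survive, stood at 17.3 ± 1.65 and 17.6 ± 1.49 FPKM. The part of macrophage content in the protease levels was not tested.

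Log2 fold changes of those 24 markers ran from -1.85 to 0.12, a range that includes -1.10, that of Lgmn. Set against their mean log2 CPM within each library, Lgmn was the one protease whose ratio was lower in all 3 single-housed libraries. Its log2 ratio was 1.27, 1.35 and 1.59 in the group-housed and 0.84, 0.78 and 0.92 in the single-housed libraries, a difference of -0.56 with no overlap (exact permutation test, two-sided, p = 0.1, which 3 against 3 cannot go below, and 0.2 adjusted over the 10 proteases). For Ctsc, Ctss, Ctsh and Ctsk the same difference was -0.02, -0.06, 0.08 and 0.05, smaller than the spread within the groups or, for Ctsh, than that of the single-housed libraries. Leaving out 1 library turned the sign of all 4, with ranges of -0.09 to 0.06 for Ctsc, -0.27 (without single-housed library 1) to 0.29 (without single-housed library 3) for Ctss, -0.03 to 0.26 for Ctsh and -0.34 (without group-housed library 3) to 0.35 (without group-housed library 2) for Ctsk. For Ctsa, Ctsd, Ctsl and Ctsz the ratio was higher in all 3 single-housed libraries, by 0.37, 0.65, 0.57 and 0.28, with the same exact p = 0.1. Ctsb differed by 0.46 with overlap (exact p = 0.2).

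Beside Ctss stood genes of class II presentation, the pathway in which it works. The mean level of 10 such genes was 7.80, 7.30 and 7.78 log2 CPM in the group-housed and 7.57, 7.64 and 6.48 in the single-housed libraries, lowest in the same 2 libraries as Ctss. Cd74, the invariant chain, stood at 836, 629 and 928 FPKM under group housing and at 737, 766 and 360 FPKM under single housing, and its log2 fold change was -0.29 ± 0.27 (edgeR adjusted p = 0.862). All 10 estimates were below 0 with a median of -0.29, and 1, Ifi30, a thiol reductase of lysosomes, was lower at an unadjusted p below 0.05 (-0.77 ± 0.27). Beside Ctsk, the 14 fibroblast and progenitor markers averaged 7.01, 7.38 and 6.74 against 6.50, 6.66 and 7.14 log2 CPM. Group-housed library 2 was the highest and single-housed library 1 the lowest of both. The parts of lymphoid and fibroblast content were not tested.

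Other lists of lysosomal genes had medians nearer to 0. Of 34 lysosomal hydrolases and cofactors, 17 were above and 17 below 0, with a median of -0.01 and 0 at an unadjusted p below 0.05. The 20 membrane proteins had a median of 0.00, the 18 listed genes of the V-ATPase, the proton pump that acidifies lysosomes, -0.06, and the 16 genes of hydrolase sorting 0.04. Lamp1, a main membrane glycoprotein, averaged 220 ± 10.2 FPKM under group and 214 ± 14.0 under single housing, and Lamp2 35.6 ± 4.17 and 32.5 ± 3.90. Smallest in p among the hydrolases were Arsb, an arylsulfatase (0.28 ± 0.14), and Lipa, the acid lipase (0.24 ± 0.12), in log2 fold change. Among the 18 listed pump genes they were Atp6ap2 (-0.21 ± 0.11), Atp6v0d2 (-0.83 ± 0.48) and Atp6v0a2 (0.18 ± 0.11), and for sorting Igf2r (0.29 ± 0.13), M6pr (-0.21 ± 0.12) and Gnptg (-0.13 ± 0.11). A pump subunit outside that list, Tcirg1, averaged 15.8 ± 1.70 FPKM under group and 11.5 ± 1.93 under single housing, without overlap, and was lower at an unadjusted p below 0.05 (-0.38 ± 0.12, edgeR adjusted p = 0.588). Within these lists, the genes at an unadjusted p below 0.05 were Cd63, a tetraspanin of late endosomes (55.0 ± 2.13 and 31.9 ± 2.90 FPKM; -0.69 ± 0.15, edgeR adjusted p = 0.377, DESeq2 adjusted p = 0.0119), and Slc11a1, a metal transporter of phagocyte lysosomes (5.07 ± 1.03 and 3.37 ± 0.01 FPKM), both lower. A pseudogene copy of Cd63 has counts of its own in the table, so the Cd63 level is uncertain. Of the mannose 6-phosphate receptors, M6pr stood at 51.3 ± 6.11 and 41.7 ± 5.57 FPKM and Igf2r at 8.84 ± 0.87 and 10.1 ± 0.62 FPKM, and Sort1, a further sorting receptor, at 35.1 ± 9.06 and 41.4 ± 8.54 FPKM. Of 21 other lysosomal proteases 10 were high enough to be tested, with a median of -0.12 and 0 at an unadjusted p below 0.05, the smallest p being those of Ctsf (0.62 ± 0.29), Dpp7 (-0.21 ± 0.12) and Prcp (-0.27 ± 0.18). Of 20 listed protease inhibitors 7 were tested, 6 of them below 0, with a median of -0.11. At an unadjusted p below 0.05 in edgeR, 2 of these 7 were lower and 1 higher, against 3.47% and 3.49% of all genes. In log2 CPM 3 of the 7 were lower and 1 higher without overlap, against 6.78% and 6.61% of all genes. Whether the 10 proteases differ from these lists was not tested.

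**Figure D4:**
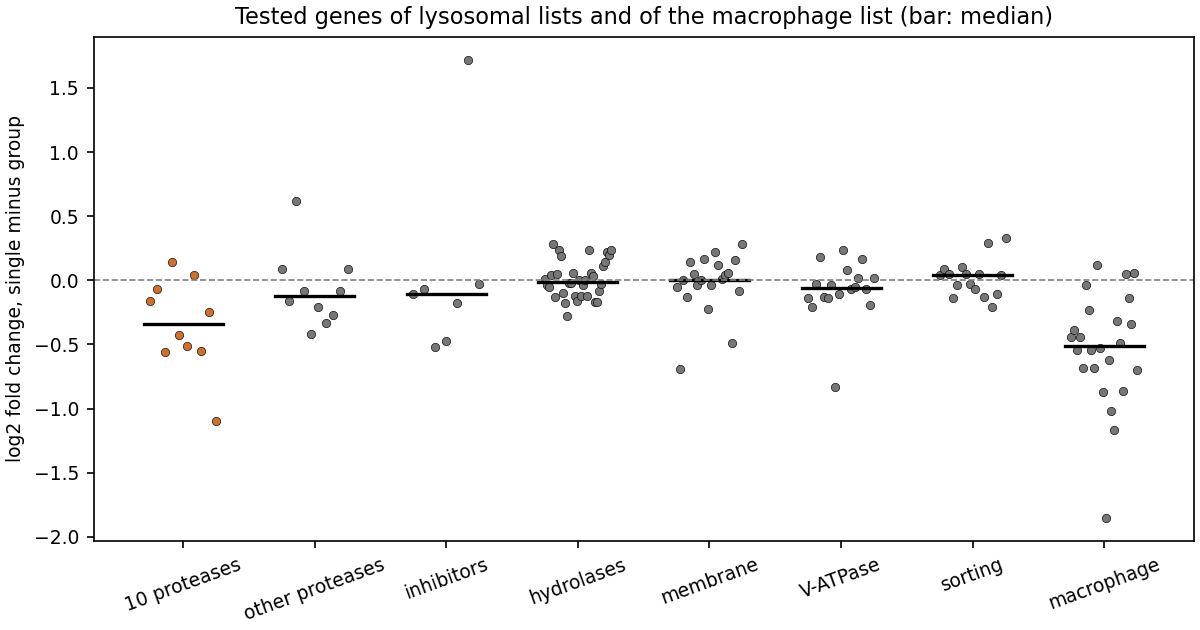
edgeR log2 fold change, single minus group housing, of every tested gene in 7 lysosomal lists and in the macrophage list, with a bar at each list's median. The medians are -0.34 for the 10 proteases, -0.01 for the hydrolases and -0.51 for the macrophage markers.

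Tfeb, Tfe3 and Mitf, transcription factors of lysosomal genes, had group means of at most 5.17 FPKM. Tfeb was at 3.30 ± 0.71 and 3.05 ± 0.53 FPKM and Tfe3 at 5.17 ± 0.16 and 4.97 ± 0.13 FPKM, with log2 fold changes of -0.02 ± 0.17 and 0.03 ± 0.11. Mitf stood at 3.31 ± 0.56 and 2.34 ± 0.19 FPKM (-0.42 ± 0.20, edgeR adjusted p = 0.747), and Spi1, which encodes PU.1, at 13.1 ± 3.57 and 8.87 ± 2.37 FPKM (-0.48 ± 0.22, edgeR adjusted p = 0.745). At an unadjusted p below 0.05, Tfec, a relative of Mitf expressed in macrophages, was lower (-0.73 ± 0.30) and Mtor, the growth kinase that holds TFEB in the cytosol, higher (0.34 ± 0.14). The 17 regulators had a median of -0.09.

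Cysteine cathepsins and legumain are held in check by cystatins. Cstb, a cytosolic inhibitor of cathepsins, stood at 88.0, 73.5 and 93.4 FPKM under group housing and at 53.6, 60.0 and 52.9 FPKM under single housing, without overlap (-0.52 ± 0.11, edgeR adjusted p = 0.344, DESeq2 adjusted p = 0.0125). Cst3, the secreted cystatin C, stood at 261 ± 33.0 and 227 ± 20.7 FPKM and overlapped. Cst7, an inhibitor in immune cells, stood at 6.51 ± 2.89 and 5.86 ± 2.56 FPKM. Ctla2a, which resembles the propeptide of cathepsin L and inhibits it, stood at 17.5 ± 0.81 and 11.9 ± 0.91 FPKM (-0.47 ± 0.10, edgeR adjusted p = 0.344, DESeq2 adjusted p = 0.00798). Kng2, a kininogen, was near the limit of detection at 0.31 ± 0.17 and 0.97 ± 0.15 FPKM (1.72 ± 0.46, edgeR adjusted p = 0.509, DESeq2 adjusted p = 0.027). Of the 7 tested inhibitors, Cstb and Ctla2a (lower) and Kng2 (higher) thus passed in DESeq2 and not in edgeR. Over all genes DESeq2 called 0.714% lower, and 78 of 18085 genes higher. The 8 cysteine proteases of the group summed to 2.31 ± 0.33 times the FPKM of Cst3 and Cstb under group housing and 2.13 ± 0.26 times under single housing, with overlap.

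Likeness to other genes was measured over the 6 libraries as the mean absolute difference in log2 CPM relative to each gene's own mean, among 10432 named genes with a mean of at least 3 log2 CPM. The mean pattern of the 10 proteases was nearest to Sdcbp (0.017), Cmtm3 and Sertad1 (0.038 each), Eef1e1 (0.044) and Cndp2 (0.053), where the median gene differed by 0.22. For single proteases, the nearest gene to Lgmn was Itgam (0.071), to Ctss Cyba (0.035), to Ctsk Ifi27l2a (0.117) and to Ctsc Jpt2 (0.048). With 6 libraries such neighbours are a description.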

How the data were processed

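Transcripts were measured by bulk RNA-seq. Per the labels' protocols, RNA was taken from frozen tissue with TRIzol, DNase-treated and column-purified, and libraries followed the protocol of Genewiz. The submitters' processing notes name build mm39. What aligned and counted the reads, and whether strand was used, was not given in the sources used here. Deposited count columns are whole numbers for each gene, raw per the file headers. The FPKM columns hold the authors' counts per kilobase of exon length, scaled to library total, without correction for composition, and equal that quotient within 0.005. Exon length is a column of its own in the deposited table. A further 24 columns of per-sample values match no sample here and were not used.

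The test was edgeR 4.0.16 in R 4.3.3, with filterByExpr, TMM and the two-sided quasi-likelihood test with Benjamini-Hochberg adjustment over 18085 genes, passing below 0.05. The standard error is the absolute log2 fold change over the square root of F, and 95% intervals use the test's degrees of freedom. Log2 CPM carry a prior count of 1. DESeq2 1.42.0, limma 3.58.1 on log2(FPKM + 1) and other settings were alternatives. Estimates of edgeR are not ratios of FPKM means. The fit was checked on simulated counts drawn separately for each gene. Those counts held none of the shared differences in tissue content between these libraries, so the check does not cover such differences. Proteases and gene lists were chosen with earlier results of these data known. All 10 proteases are named, and in each list the defining genes and the 3 of smallest p, of which 1 is not reported here. Depth bounds precision by counting error only, which is small beside the spread between mice. The labels do not state that replicate numbers pair the mice. Deviations of same-numbered libraries correlated at 0.11, -0.55 and -0.70. Those of the 2 muscle-rich libraries, which bear different numbers, correlated at 0.71. Such correlations cannot show whether mice were paired.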

Additional observations from a re-analysis of the deposited data

How the results depend on the processing

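Over 16 alternatives the estimates of Lgmn, Ctsc, Ctss, Ctsk, Ctsh, Ctsz and Ctsa stayed below 0. The count of all genes called, 0 in edgeR, was 207 in DESeq2, 53 without the filter on low counts, 53 with library weights, 22 when the 2 muscle-rich libraries (group-housed 2, single-housed 3) were left out, and 999 with the muscle covariate. Among the proteases, 1 (Lgmn) was called in DESeq2 (-1.10), without the filter (-1.10) and with library weights (-1.06). With the muscle covariate 4 were, namely Lgmn (-1.10), Ctss (-0.60), Ctsc (-0.55) and Ctsh (-0.45). The count of proteases lower at an unadjusted p below 0.05 was 3 in edgeR. It was 5 with library weights (1259 of 18085 genes) and 5 without those 2 libraries (5.96% of all genes). With the covariate it was 6 (2189 of 18085 genes), and with the replicate block 2 (339 genes). When 1 library was left out it was 2 to 3, where 445 to 734 of all tested genes were lower.

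Signs changed for genes near 0. Ctsl was at -0.05 in each of the 3 limma fits on FPKM and -0.11 with library weights, and Ctsd at -0.06 with library weights. Leaving out 1 library each, Ctsb ran from -0.21 to 0.06, Ctsd from -0.05 to 0.26, Ctsl from -0.11 to 0.17 and Lgmn from -1.19 to -0.94, and edgeR called 0 genes in each. The summed FPKM differed by -129 with TMM scaling, against -192 as deposited. With the replicate number as a block, edgeR called 0 genes and the adjusted p of Lgmn was 0.779. Without Cd68 among the markers, ratios to macrophage markers moved by less than the spread between libraries, and with 1 library left out the ratio of Lgmn differed by -0.63 to -0.47. The causes were not tested. Signal of rare cells in bulk tissue is limited by depth and by 3 mice per group.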

Other observations

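The deposited table assigns 117 tested genes to the KEGG lysosome pathway, beside the proteases. At an unadjusted p below 0.05, 8 of them (6.84%) were lower and 1 higher in single housing. Over all tested genes the shares were 3.47% lower and 3.49% higher. Of the 117, 0 passed edgeR's adjusted threshold. The 8 were Cd63 and its pseudogene copy, Cd68, Slc11a1, Litaf, Tcirg1, Ap1s2 and Clta, chosen for naming after their values were seen. Pseudogenes are among the 117. Cd63 and its copy had the same log2 fold change (-0.69), and Cd68 is also in the macrophage list, so the 8 may not be separate signals. Tcirg1, the pump subunit known from osteoclasts, stood at 15.5, 14.2 and 17.6 FPKM under group housing and 12.7, 12.4 and 9.23 FPKM under single housing (-0.38 ± 0.12, edgeR adjusted p = 0.588). Litaf, an endosomal membrane protein induced by lipopolysaccharide, stood at 14.7 ± 1.96 and 9.92 ± 0.46 FPKM (SD, n = 3 each). Hyal1, a lysosomal hyaluronidase, was the one higher gene, at 2.77 ± 0.51 and 4.40 ± 1.38 FPKM (0.77 ± 0.30, edgeR adjusted p = 0.698).

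Ctsf, a cysteine cathepsin outside the group of 10, had the largest estimate above 0 of the tested proteases. It stood at 4.03, 4.41 and 2.83 FPKM under group housing and at 4.21, 5.08 and 6.95 FPKM under single housing, with overlap (0.62 ± 0.29, edgeR adjusted p = 0.747).

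Further cell type lists leaned in both directions, where 51.9% of all tested genes were below 0. In edgeR 0 of the listed genes passed the adjusted threshold. DESeq2 called Trem2, Mmp12, S100a9, Csf3r and S100a8 lower, where it called 0.714% of all genes lower. Of 11 markers of lipid-associated macrophages 8 were below 0 (median log2 fold change -0.40), with the smallest p for Trem2 (-1.95 ± 0.48), Mmp12 (-2.10 ± 0.58) and Spp1 (-1.38 ± 0.49). Fabp4 is both in this list and in the adipocyte list. The 11 summed to 2133 to 3494 FPKM per library, against 799 to 1765 FPKM for the macrophage list. The part of adipocytes in that signal was not tested. Of 16 dendritic cell, neutrophil and mast cell markers 11 were below 0 (median -0.29), led by S100a9 (-2.17 ± 0.51), Csf3r (-1.44 ± 0.34) and S100a8 (-2.05 ± 0.57). Fibroblast and progenitor markers were below 0 in 12 of 14 (median -0.26), led by Ly6a (-0.62 ± 0.24), Lum (-0.83 ± 0.33) and Col1a2 (-0.74 ± 0.32). B and plasma cell markers were below 0 in 11 of 12 (median -0.30; Jchain 1.08 ± 0.57, Cr2 -0.44 ± 0.44, Ms4a1 -0.39 ± 0.39), and T and NK markers in 12 of 14 (median -0.13; Trbc2 -0.40 ± 0.46, Nkg7 -0.33 ± 0.45, Trac -0.28 ± 0.45). Among class II genes, H2-DMb1 followed Ifi30 and Cd74 by p (-0.30 ± 0.30).

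Endothelial and pericyte markers were above 0 in 9 of 10 (median 0.39), led by Kdr (0.69 ± 0.20), Emcn (0.58 ± 0.19) and Cdh5 (0.70 ± 0.23). Adipocyte markers were above 0 in 10 of 12 (median 0.21; Lep 0.67 ± 0.33, Slc2a4 0.40 ± 0.23, Pparg 0.44 ± 0.27). All 21 tested muscle markers were above 0 (median 1.34; Actn2 1.52 ± 0.58, Mb 3.37 ± 1.32, Myh2 3.32 ± 1.31), but their mean level was 3.63 log2 CPM under group and 3.61 under single housing, and single-housed library 3 (7.87) stood apart from single-housed libraries 1 and 2 (1.59 and 1.37). Of 8 epithelial markers 3 were tested, with a median of -0.37 (Epcam -0.70 ± 0.36, Cdh1 -0.37 ± 0.28, Krt10 0.08 ± 0.29). The 4 tested osteoclast markers had a median of -0.06, with Tnfrsf11a at -0.64 ± 0.23, Ocstamp at 0.12 ± 0.40 and Nfatc1 at -0.07 ± 0.23. Among lysosomal membrane genes Tmem192 followed Cd63 and Slc11a1 by p (0.28 ± 0.15).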
